A study of Mus musculus with 9 samples.

Results

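The autosomal kinesin genes were examined in growing mouse oocytes with 3 sex chromosome complements. They are the 40 genes on chromosomes 1 to 19 whose deposited name is Kif or Kifc followed by a number and at most 1 letter, of 28051 genes in the deposited matrix. The rule uses names and chromosomes alone and no measured value. The members lie on 15 chromosomes, and X-linked Kif4 is thereby left out. RNA of 9 pools was analysed, 3 of XX, 3 of XO and 3 of XY oocytes, and each pool held 30 oocytes from females of 18 dpp (10 of 50–55 μm and 20 of 55–60 μm in diameter). XX and XY oocytes came from littermates, daughters of B6.YTIR males and B6 females, in which the YTIR chromosome fails to direct testis formation on the B6 background. XO oocytes came from another cross, of males carrying Paf with B6 females, and the Paf line had been moved by repeated backcrossing from C3H/HeSnJ to B6. The labels give C57BL/6 as strain of all samples, so the XO genotype differs from the others in cross as well as in chromosomes, and these cannot be told apart. The pools of a genotype are described as biological triplicates and are numbered 1 to 3 (XX1 and so on).

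Kinesins are motor proteins that bind microtubules through a conserved motor domain and hydrolyse ATP. Most walk along the microtubule with vesicles, organelles, RNA or other microtubules as cargo, whereas members of the kinesin-13 and kinesin-8 families shorten microtubule ends. In dividing cells they build the bipolar spindle, align the chromosomes and complete cytokinesis. A growing oocyte is arrested in meiotic prophase and has no spindle. It stores transcripts that are used later, when a spindle without centrioles forms in the meiotic divisions, and it also moves organelles as its volume increases. The members were therefore ordered by known role into 14 genes of spindle and cytokinesis, 17 of transport, 6 of cilia and 3 remaining genes.

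Transcripts were measured by Smart-seq3, which adds a molecular tag (UMI) at the 5′ end of a cDNA, and 1 UMI stands for 1 captured molecule. Levels are given as normalized CPM, the deposited UMI count per 1000000 gene UMIs after scaling to ERCC spike-in RNAs. Genes received between 2130145 and 3157338 UMIs per pool, and the kinesin genes 31174 UMIs over the 9 pools. All 12 oocyte markers had UMIs, although Sohlh1 had only 1, in XX3. Their summed level was between 18550 and 35580 normalized CPM in the pools. Of 10 granulosa cell markers 6 had a UMI, with sums between 9.84 and 21 normalized CPM. Kitl was the largest part in every pool, at 5.69 (XO2) to 19.2 (XX3). Fshr was at 3.10 in XO2, 4.52 in XO3 and 1.39 or less in the other pools. Inhba was at 0.61 to 3.25, while Amhr2 and Inha had 2 UMIs or fewer in any pool. Markers of theca cells summed to between 3.05 and 11.4 normalized CPM. Those of stroma and vessels summed to between 15.0 and 133, nearly all of it Pecam1, while the 3 blood and immune markers had no UMI. In pooled RNA, fewer oocytes with a transcript and less of it per oocyte cannot be told apart. For many genes, oocyte markers included, XO1 lay far from XO2 and XO3, so results that rest on it are given with and without it. Which XO pools stood apart depended on the gene. Gdf9 was at 339 normalized CPM in XO1, 252 to 319 in XX and 234 to 350 in XY pools. In XO2 and XO3 it was at 869 and 2432, and Nobox and Ooep were likewise highest there. Zp2, in contrast, was at 4919 in XO1 and at 10049 or more in every other pool. From a heatmap of highly expressed, variable genes, the paper describes XX1, XO2 and XY1 as less similar to the remaining pools of their genotype.

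Kinesin transcripts were many, but few genes made up most of them. Of the 40 members, 26 had at least 1 UMI in every pool, 17 reached a mean of 10 normalized CPM, 12 lay between 1 and 10, and 11 were below 1. The 12 most abundant members held 88.6% of all kinesin UMIs, and Kif20b and Kif18a alone 40.9%. Of the 14 spindle and cytokinesis genes 8 reached 10 normalized CPM, against 7 of the 17 transport genes, 2 of the 6 cilium genes and 0 of the remaining 3. A 5′ UMI is counted once per molecule whatever the length of the transcript. When levels were nevertheless divided by the length of the longest transcript, 11 of the 12 most abundant members stayed among the first 12, and in the authors' batch-regressed values it was again 11 of 12.

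**Figure D1:**
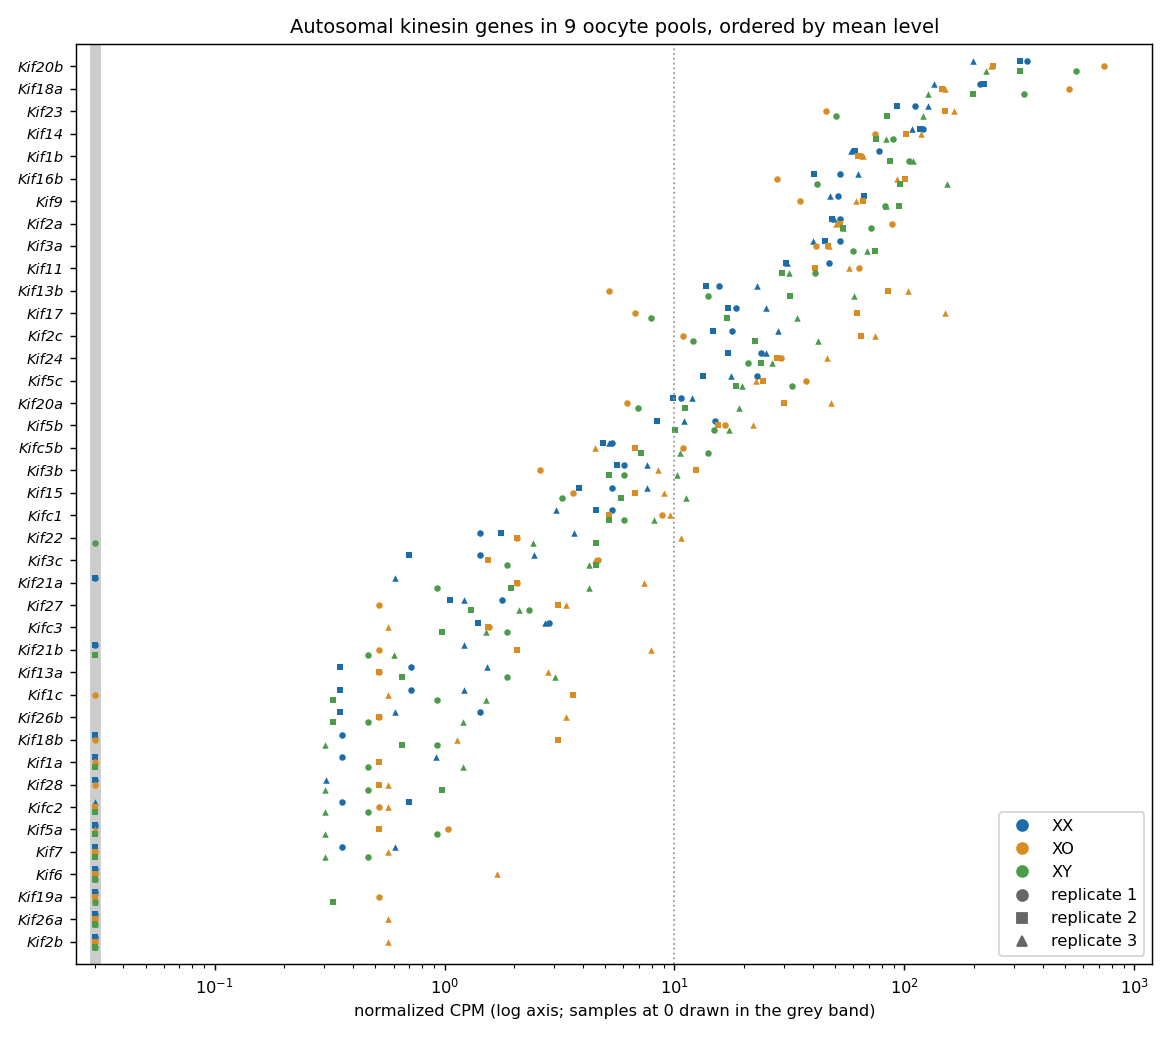
Normalized CPM (log axis) of the 40 autosomal kinesin genes in 9 oocyte pools, ordered by mean level, with colours for genotypes, symbols for replicate numbers and pools at 0 drawn in the grey band. Kif20b and Kif18a head the order, 17 genes have a mean above the dotted line at 10 normalized CPM, and pools of XO spread most widely for Kif13b and Kif17.

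Kif20b had the highest mean in each genotype, and over all pools also per kilobase. It encodes a kinesin-6 motor that acts late in cytokinesis (ENSMUSG00000024795, chr19:34922361-34975745, GRCm38). Its level was 343, 319 and 199 normalized CPM in XX pools, 741, 243 and 239 in XO and 559.6, 318 and 226 in XY pools, so XO1 and XY1 exceeded all other pools. Kif18a, a kinesin-8 that limits the length and swing of kinetochore microtubules (chr2:109280738-109341747), followed with 214, 222 and 134 normalized CPM in XX pools, 518, 146 and 149.6 in XO and 333, 199 and 127 in XY. These genes moved together, with 1.43 to 1.78 UMIs of Kif20b for each UMI of Kif18a in every pool. Neither differed between genotypes by more than the spread between pools.

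The other kinesin-6 genes and their partners in the midzone behaved differently. Kif23, the motor of the centralspindlin complex that organizes the spindle midzone, was at 111, 92.4 and 126 normalized CPM in XX pools, 45.6, 149.9 and 164 in XO and 50.7, 84.3 and 120.1 in XY pools. XO1 and XY1, highest for Kif20b, were thus the lowest for Kif23. The number of Kif20b UMIs for each UMI of Kif23, a ratio within a pool that no scaling alters, was 16.3 in XO1 and 11 in XY1 and between 1.46 and 3.77 in the other 7 pools. Kif20a, which carries the chromosomal passenger complex to the midzone, was at 10.7, 9.80 and 11.9 normalized CPM in XX pools, 6.21, 30.0 and 48.0 in XO and 6.97, 11.1 and 19.02 in XY. Kif14, which binds Prc1 and citron kinase in cytokinesis, was at 121, 117 and 108 normalized CPM in XX pools, 74.6, 101 and 119 in XO and 89.2, 75.2 and 83.3 in XY. All 3 XX pools lay above the 3 XY pools for Kif14, and XO pools overlapped with both.

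Motors that shape the spindle itself covered a wide range. Kif2a, a kinesin-13 that takes tubulin off microtubule ends, was at 52.4, 48.7 and 49.7 normalized CPM in XX pools, 88.5, 52.7 and 50.2 in XO and 71.6, 54.0 and 54.3 in XY. Its relative Kif2c, the depolymerase of centromeres, was at 17.8, 14.7 and 28.3 in XX, 10.9, 64.6 and 74.5 in XO and 12.1, 22.5 and 42.3 normalized CPM in XY. XO1 was therefore the highest pool of all for Kif2a and the lowest for Kif2c. Kif11, the tetrameric kinesin-5 that pushes spindle poles apart, was at 47.0, 30.5 and 30.8 normalized CPM in XX pools, 63.7, 40.8 and 57.6 in XO and 40.9, 29.3 and 31.4 in XY. Kif15, which can share this task, was at 5.34, 3.85 and 7.62 normalized CPM in XX pools, 3.62, 6.72 and 9.03 in XO and 3.25, 5.86 and 11.2 in XY, so XX, XO and XY overlapped. Kif22, which pushes chromosome arms away from the poles, was at 1.42, 1.75 and 3.66 normalized CPM in XX pools, 2.07, 2.07 and 10.7 in XO and 0, 4.56 and 2.41 in XY. Kif18b and Kif2b were close to absent, with 14 UMIs and 1 UMI over all pools. For Kif18b the values were 0.36, 0 and 0 normalized CPM in XX pools, 0, 3.10 and 1.13 in XO and 0.93, 0.65 and 0.30 in XY, and for Kif2b the single UMI, 0.56 normalized CPM, was in XO3. A count of 0 over the 3 pools of a genotype allows up to 3 UMIs (upper 95% limit, counting error only).

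Kifc1 focuses spindle poles as a motor walking to the minus end, and Kifc5b is a near copy of it on the same chromosome. Kifc1 was at 5.34, 4.55 and 3.05 normalized CPM in XX pools, 8.80, 5.17 and 9.60 in XO and 6.04, 5.21 and 8.15 in XY, and Kifc5b at 5.34, 4.90 and 5.18 in XX, 10.9, 6.72 and 4.52 in XO and 13.9, 7.16 and 10.6 in XY. Of all 50-base words in the longest transcript, 47.6% of those of Kifc1 and 42.1% of those of Kifc5b occur in the other gene, and 20.0% and 18.6% of those in the first 500 bases. Reads of these genes can be split between them, and their values are uncertain for this reason. No other member shared over 3.04% of its words with any gene, although Kif28 shared 21.2% of those in its first 500 bases with Ahctf1.

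The transport kinesins were led by members of the kinesin-3 family. Kif1b, known for carrying mitochondria and precursors of synaptic vesicles (chr4:149176319-149307693), was at 77.7, 60.9 and 58.8 normalized CPM in XX pools, 64.7, 62.6 and 66.0 in XO and 105, 86.6 and 109.6 in XY. Every XY pool was above every XX and XO pool. Kif16b, which moves early endosomes, was at 52.4, 40.6 and 62.8 normalized CPM in XX pools, 28.0, 100.3 and 93.1 in XO and 41.8, 95.4 and 153 in XY. Kif13b, a carrier of membrane-associated scaffold proteins, was at 15.7, 13.7 and 22.8 normalized CPM in XX pools, 5.18, 85.3 and 103 in XO and 13.9, 31.9 and 60.4 in XY. Its XO pools spanned a 19.95-fold range, with XO1 below every other pool and XO2 and XO3 above every other pool.

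Kinesin-2 motors drive transport towards the tips of cilia and also run in cells without them. Kif3a, a motor subunit of heterotrimeric kinesin-2 (chr11:53567379-53601967), was at 52.7, 45.2 and 39.9 normalized CPM in XX pools, 41.4, 46.5 and 46.9 in XO and 60.0, 74.2 and 68.5 in XY, again with each XY pool above the other 6. Kif3b, its usual partner, was at 2.59 to 12.4 normalized CPM and Kif3c at 0.70 to 4.66, and their genotypes overlapped. Kif17, a kinesin-2 that works as a homodimer, was at 18.5, 17.2 and 25.0 normalized CPM in XX pools, 6.73, 62.0 and 149.6 in XO and 7.90, 16.9 and 34.1 in XY, a 22.2-fold range among XO pools. Of the kinesin-1 heavy chains, the general carriers of the secretory pathway, Kif5c was at 13.3 to 37.3 and Kif5b at 8.40 to 22.02 normalized CPM, whereas neuronal Kif5a had 6 UMIs in all. The other transport members (Kif1a, Kif1c, Kif13a, Kif21a, Kif21b, Kifc2 and Kifc3) had between 7 and 45 UMIs over the 9 pools.

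Among the 6 cilium kinesins, Kif9 stood out. Kif9 acts in the central apparatus of motile cilia and sperm flagella (chr9:110476958-110525179), and oocytes have neither. Its level was 51.6, 66.9 and 47.5 normalized CPM in XX pools, 35.2, 66.2 and 61.5 in XO and 82.3, 94.4 and 83.3 in XY, and all 3 XY pools exceeded the other 6. Kif24, a kinesin-13 that restrains the growth of cilia, was at 17.2 to 25.0 normalized CPM in XX pools, 27.9 to 46.3 in XO and 20.9 to 26.6 in XY, so XO pools were above those of XX and XY on this scale. Scaled on the genes (TMM, explained with the tests), Kif24 was at 20.98 to 29.6 in XX, 24.2 to 33.5 in XO and 20.6 to 27.3 in XY, and the genotypes overlapped. Kif27 had 41 UMIs, while Kif7, the motor of Hedgehog signalling, Kif6 and Kif19a had 6, 3 and 2 over all pools. Of the remaining members, Kif26b, Kif28 and Kif26a had 21, 8 and 1.

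The order of levels was firm in few places. Among the 17 most abundant members of each genotype, the pools of neighbours in the order did not overlap in 3 of 16 neighbouring pairs in XX, 1 in XO and 2 in XY. In XX the breaks lay between Kif18a and Kif14, between Kif23 and Kif1b and between Kif11 and Kif24. In XY they lay between Kif18a and Kif1b and between Kif14 and Kif3a, and in XO between Kif5c and Kif5b. Kif1b ranked 5 in XX, 8 in XO and 3 in XY. At other places the ranges of neighbours overlapped, although 3 such pairs in XX, 3 in XO and 1 in XY had the same order in all 3 pools, Kif20b above Kif18a in each genotype among them.

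Levels were then compared between genotypes with edgeR's quasi-likelihood test on UMI counts, fitted over 10993 genes that passed a filter on low counts. Of the 40 members, 22 passed this filter, 12 spindle, 8 transport and 2 cilium genes. A gene was called at an unadjusted p below 0.05, the threshold of the study, and adjusted p-values are those of Benjamini and Hochberg over all genes tested. The study used limma with surrogate variables (sva) as covariates, which the fit reported here leaves out. The spike-in scaling places most genes lower in XX than in XO or XY oocytes. The median log2 fold change of all tested genes was −0.46 for XX against XO, −0.19 for XX against XY and −0.30 for XY against XO. When libraries were scaled on the genes themselves (TMM), these medians were −0.03, −0.04 and −0.02, and results on this second scale stand beside those on the first. Levels per pool on the TMM scale were added after the data were seen.

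Between XX and XO oocytes, edgeR called 0 of 22 members, while 18.1% of all tested genes were called. DESeq2 called 1 (Kif14, higher in XX) beside 13.7% of all genes, and limma-voom 0 beside 11.7%. With TMM scaling edgeR also called Kif14 alone (0.69 on the log2 scale, edgeR adjusted p = 0.329), where 11.9% of genes were called. The median log2 fold change of the members was −0.52, beside −0.46 for all genes. The largest log2 differences were −1.89 ± 0.86 for Kif13b (standard error, edgeR adjusted p = 0.281), −1.84 ± 0.86 for Kif17, −1.37 ± 0.63 for Kif20a and −1.30 ± 0.67 for Kif2c, and none was called. Without the filter on low counts, 7 of 40 members were called, beside 14.1% of all genes, and Kif13b, Kif17, Kif21a and Kif21b passed adjustment. For Kif13b and Kif17 the XX pools lay between XO1 and the other XO pools. Kif21a was at 0, 0 and 0.61 normalized CPM in XX pools, below its XO pools at 2.07, 2.07 and 7.34. Kif21b was at 0, 0 and 1.22 normalized CPM in XX pools and at 0.52, 2.07 and 7.90 in XO pools. With the replicate number as a block, Kif5b, Kif5c, Kif11 and Kif24 were called lower in XX, 4 of 22 members beside 23.0% of all genes.

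Without XO1, which leaves 2 XO pools beside 3 XX pools in edgeR, 6 of 24 members were called lower in XX, beside 36.9% of all genes. They were Kif13b, Kif17, Kif20a, Kif2c, Kif24 and, chosen here after its values were seen, Kif21a with 2 UMIs in XX and 21 in XO. All but Kif24 passed adjustment in edgeR (adjusted p = 0.00576 to 0.0183), and the log2 fold changes were −2.43 for Kif13b, −2.38 for Kif17, −1.84 for Kif20a and −1.77 for Kif2c. The share called among the members was below that among all genes in this setting as well. Without both XO1 and XY1 the share of all genes called was 41.7%, and 7 of 24 members were called. Among the 22 members tested with all pools, XX and XO did not overlap on the spike-in scale for 2, Kif5b and Kif24. Both were lower in XX (13.6% of all tested genes), and 0 members were higher (2.79%). On the TMM scale 0 members were lower (4.34%), and Kif14, Kif1b and Kif3a were higher in every XX pool (10.1%).

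Between XX and XY oocytes, 3 of 22 members were called, all lower in XX, beside 5.80% of all tested genes. They were Kif1b at −0.61 ± 0.25 (log2, standard error, edgeR adjusted p = 0.784), Kif3a at −0.56 ± 0.24 (edgeR adjusted p = 0.825) and Kifc5b at −1.02 ± 0.40 (edgeR adjusted p = 0.765). The value for Kif9 was −0.65 ± 0.30 (edgeR adjusted p = 0.897) and was not called. None of the 22 passed adjustment in the fit reported, nor in DESeq2 or limma-voom. With 2 sva covariates 10 members were called (20.0% of all genes), and Kif13b, Kif14, Kif16b and Kif9 passed adjustment. Relative to the median of all genes in the fit reported, the differences were −0.42 for Kif1b, −0.37 for Kif3a and −0.83 for Kifc5b. With TMM scaling these genes kept their sign and lost their calls, at −0.46, −0.42 and −0.85. Kif14 was then called alone, higher in XX by 0.64 (edgeR adjusted p = 0.744), where 5.35% of all genes were called. With the spike-in scale the difference for Kif14 was 0.48 ± 0.26 (edgeR adjusted p = 0.983). On the spike-in scale Kif3a, Kif1b, Kifc5b, Kif9 and Kif2a were lower in all 3 XX than in all 3 XY pools (11.7% of all tested genes), and Kif14 alone was higher (4.15%). On the TMM scale the lower members were Kif3a, Kif1b, Kifc5b and Kifc1 (7.52%), and the higher one was again Kif14 (8%). The count of called members was 0 without XY3, beside 4.25% of all genes, and 8 without XO1, beside 11.1%. Blocking on the replicate number gave 4 (9.16%).

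Between XY and XO oocytes, 2 of 22 members were called, both higher in XY, beside 9.93% of all tested genes. Kif1b differed by 0.64 ± 0.25 (log2, standard error, edgeR adjusted p = 0.485) and Kif3a by 0.59 ± 0.24 (edgeR adjusted p = 0.494), against a median of all genes in the other direction. The difference for Kif9 was 0.67 ± 0.30 (edgeR adjusted p = 0.501) and was not called. On the TMM scale Kif1b, Kif3a and Kif9 were called, at 0.91, 0.89 and 0.99 (edgeR adjusted p = 0.491 for each), while 9.07% of genes were. Across the 22 members, deviations of same-numbered XY and XO pools correlated at 0.85, −0.05 and 0.85, so pools numbered 2 did not deviate together. The fit with the number as a block is given too. It called 5 members, Kif1b, Kif3a and Kif9 higher and Kif11 (−0.67, edgeR adjusted p = 0.246) and Kif17 (−1.61, edgeR adjusted p = 0.262) lower in XY, where 16.6% of all genes were called. Without XO1, edgeR lost the call of Kif3a (0.53 ± 0.25) and called Kif1b higher and Kif13b, Kif17, Kif20a, Kif23 and Kif2c lower in XY, 6 of 24 members beside 32.1% of all genes. Of these Kif17 and Kif20a passed adjustment (edgeR adjusted p = 0.0145 and 0.0226). Without XO3 edgeR called 0 members beside 3.74% of all genes, and without XX2 it called 0 beside 8.24%. Pools did not overlap for Kif1b, Kif3a and Kif9, higher in XY on both scales (3.88% of all tested genes, 8.62% with TMM), and for Kif24, lower in XY on the spike-in scale (6.34%), whereas 0 members were lower with TMM (2.96%).

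Kif1b, Kif3a and Kif9 thus shared 1 pattern on the spike-in scale, with XY pools above both XX and XO pools. All 3 XY pools there exceeded all 6 other pools for these 3 of the 22 members and for 1.96% of all tested genes, and the reverse was found for 0 members and 0.855% of genes. On the TMM scale Kif1b and Kif3a kept the pattern (2.40% of genes, and 0.764% with 0 members for the reverse), while Kif9 was at 81.2 in XY1 and 80.98 in XY3, below the 81.8 of XX2. Since XX and XO pools are each set against the same XY pools, the comparisons are not independent. Means were 65.8 ± 10.3 normalized CPM in XX pools, 64.4 ± 1.76 in XO and 100.2 ± 12.1 in XY (SD, n = 3) for Kif1b. For Kif3a they were 45.9 ± 6.44, 44.9 ± 3.05 and 67.6 ± 7.18, and for Kif9 55.4 ± 10.2, 54.3 ± 16.7 and 86.7 ± 6.73 normalized CPM. The XX against XO differences were 0.03 on the log2 scale for each of the 3 genes, with standard errors of 0.25, 0.24 and 0.30. On the TMM scale they were 0.46, 0.47 and 0.50, none of them called, so the place of XX between XO and XY depends on the scale. Set against pools of the same number, XY was 1.35, 1.42 and 1.86 times XX for Kif1b, 1.14, 1.64 and 1.72 times for Kif3a and 1.59, 1.41 and 1.75 times for Kif9. Against XO the ratios were 1.62, 1.38 and 1.66 for Kif1b, 1.45, 1.595 and 1.46 for Kif3a and 2.34, 1.43 and 1.35 for Kif9. As these genes were chosen for XY pools above all others, every ratio exceeds 1 by that choice, and the ratios give sizes only.

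**Figure D2:**
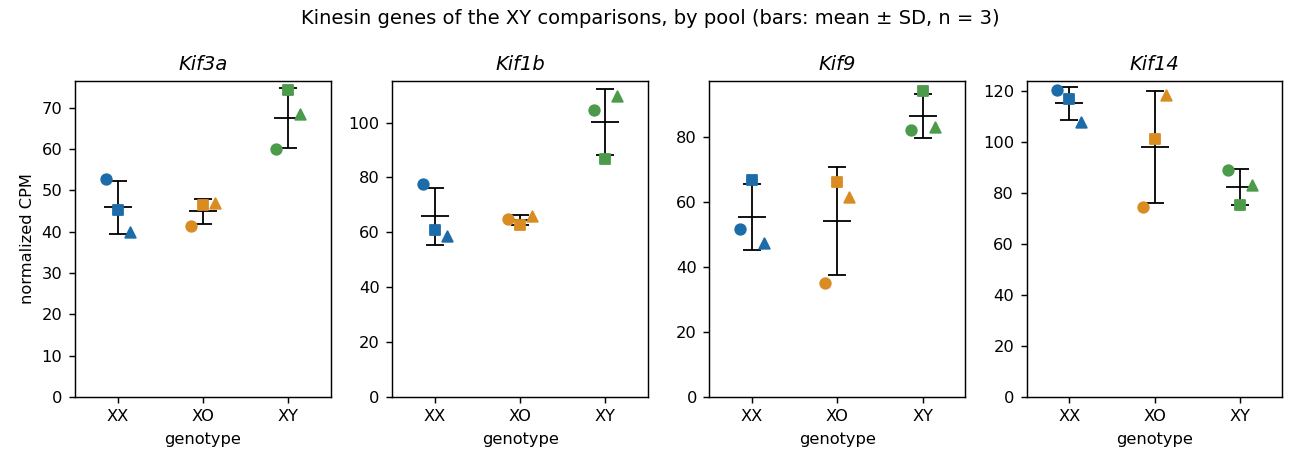
Normalized CPM of Kif3a, Kif1b, Kif9 and Kif14 in each pool by genotype, with symbols for replicate numbers (circle 1, square 2, triangle 3) and black bars for mean ± SD of 3 pools. The 3 XY pools lie above the other 6 for Kif3a, Kif1b and Kif9 (for Kif9 on this spike-in scale only), and below the 3 XX pools for Kif14.

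The letters ahead of the start sites are shown for these 3 genes, which shared a pattern, and for Kif20b and Kif18a, highest in XO1 and XY1, beside Kif23 and Kif16b, the lowest there among pools of the same genotype. RefSeq (GRCm38.p6) gave promoter windows for 31 of the 40 members. Each line holds the 100 bases before the annotated start, 5′ to 3′ on the strand of the gene, with capitals for the letters CCAAT or TTTGAA on either strand.
Kif3a (chr11:53567269-53567368, plus strand): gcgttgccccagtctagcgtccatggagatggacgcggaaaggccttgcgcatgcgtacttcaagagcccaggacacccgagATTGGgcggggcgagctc
Kif1b (chr4:149307699-149307798, minus strand): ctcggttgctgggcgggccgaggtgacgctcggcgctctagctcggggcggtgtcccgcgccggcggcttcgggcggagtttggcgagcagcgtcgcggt
Kif9 (chr9:110476858-110476957, plus strand): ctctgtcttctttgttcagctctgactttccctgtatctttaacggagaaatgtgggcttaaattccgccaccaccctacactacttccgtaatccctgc
Kif20b (chr19:34922258-34922357, plus strand): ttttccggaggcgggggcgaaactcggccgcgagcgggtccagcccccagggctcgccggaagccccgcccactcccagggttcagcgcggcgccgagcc
Kif18a (chr2:109280638-109280737, plus strand): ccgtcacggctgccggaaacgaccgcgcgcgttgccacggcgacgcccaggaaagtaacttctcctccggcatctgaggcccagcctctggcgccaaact
Kif23 (chr9:61946800-61946899, minus strand): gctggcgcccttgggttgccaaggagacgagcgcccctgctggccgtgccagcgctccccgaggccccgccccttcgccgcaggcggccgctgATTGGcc
Kif16b (chr2:142901465-142901564, minus strand): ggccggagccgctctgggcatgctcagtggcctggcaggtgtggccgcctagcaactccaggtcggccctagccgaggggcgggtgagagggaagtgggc

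These stretches differed in base composition, from 47% GC before Kif9 to 77% before Kif20b and Kif23. Kif3a and Kif23 each held CCAAT on the reverse strand, and TTTGAA was in none of the 7. Over the 250 bases before the start, CCAAT on either strand was found in 15 of 31 members (48.4%, against 33.9% of 32841 windows of all genes), TTTGAA in 7 (22.6% against 16%), CANNTG in 14 (45.2% against 66.2%) and TATAAA in 4 (12.9% against 12.4%). The median GC content of these windows was 64.4% in members and 52.4% in all windows. For Kif14, Kif2c, Kif27 and Kif17 the RefSeq start lay 1505, 3867, 4175 and 11816 bases from the 5′ end of the deposited gene. TTTGAA of Kif14, Kif2c and Kif27 and TATAAA of Kif2c and Kif27 come from such windows. Members with several windows were given the nearest one, whereas the windows of all genes can include several per gene. The 3 genes of the XY pattern shared none of these motifs in the 250 bases, as Kif1b and Kif3a held CCAAT and CANNTG and Kif9 TATAAA only.

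Pools of the same genotype differed widely for many members. The highest XO pool exceeded the lowest by 2.45 times in the median of 22 members and by over 2 times in 12 of them. In XX it was 1.5 times, with 1 member above 2, and in XY 1.95 times in 21 members without a pool at 0, with 9 above 2. Kif1b had the narrowest range in XO (1.06 times) and Kif9 in XY (1.15 times). XO1 was the lowest XO pool for 11 members and the highest for 6, and XY1 the lowest XY pool for 11 and the highest for 7. Kif20b, Kif18a, Kif2a, Kif11, Kif5c and Kifc5b were highest in both, whereas Kif23, Kif16b, Kif9, Kif3a, Kif13b, Kif17, Kif2c, Kif20a and Kif15 were lowest in both.

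**Figure D3:**
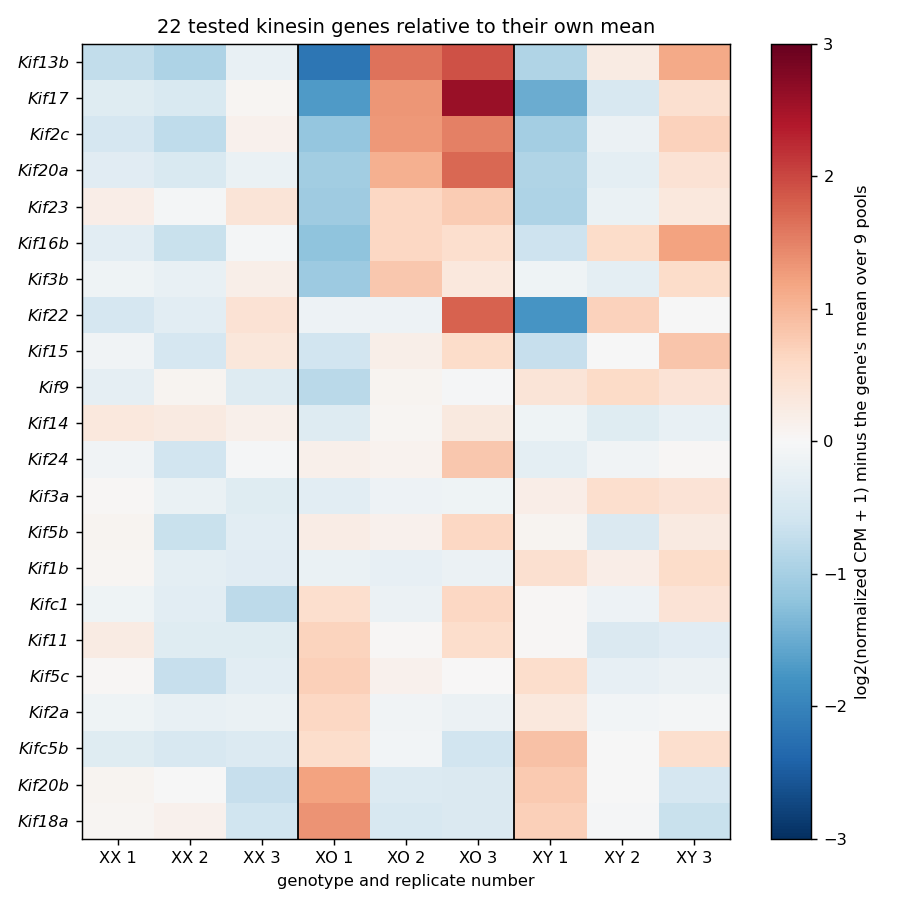
Each of the 22 tested kinesin genes in each pool, as log2(normalized CPM + 1) minus the mean of that gene over the 9 pools (red above, blue below), ordered by the difference of XO1 to XO2 and XO3. Kif13b and Kif17 are lowest in XO1 and highest in XO2 and XO3, and Kif20b and Kif18a are highest in XO1 and XY1.

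Oocyte markers and base composition moved along with these pool differences. Of the 12 oocyte markers, 8 were lowest and 3 highest in XO1 among XO pools, and the same numbers held for XY1 among XY pools. Zp1, a zona pellucida protein of growing oocytes, was at 13.98, 759 and 2166 normalized CPM in XO1, XO2 and XO3. It was at 48.0 to 112 in XX and 26.0 to 129 in XY pools. The GC content of the longest transcript ran from 38.2% for Kif18a to 60.1% for Kif17 among tested members. Across the 22 members, the difference of pool 1 to the mean of pools 2 and 3 had a Pearson coefficient with GC of −0.38 in XX, −0.53 in XO and −0.44 in XY, and across 10977 genes −0.10, −0.39 and −0.34. By rank (Spearman) the coefficients were −0.503, −0.481 and −0.485 across members and −0.11, −0.42 and −0.36 across genes. Genes of 1 library share its depth and amplification, so these coefficients describe the libraries. The part of these measures in the pool differences was not tested. When the GC trend of each pool was removed on the TMM scale, an alternative added after the data were seen, XY against XO gave Kif1b, Kif3a and Kif9 higher and Kif11 lower, beside 10.5% of all genes. Kif14 alone was called, higher in XX, against XO (13.7% of genes) and against XY (6.14%).

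**Figure D4:**
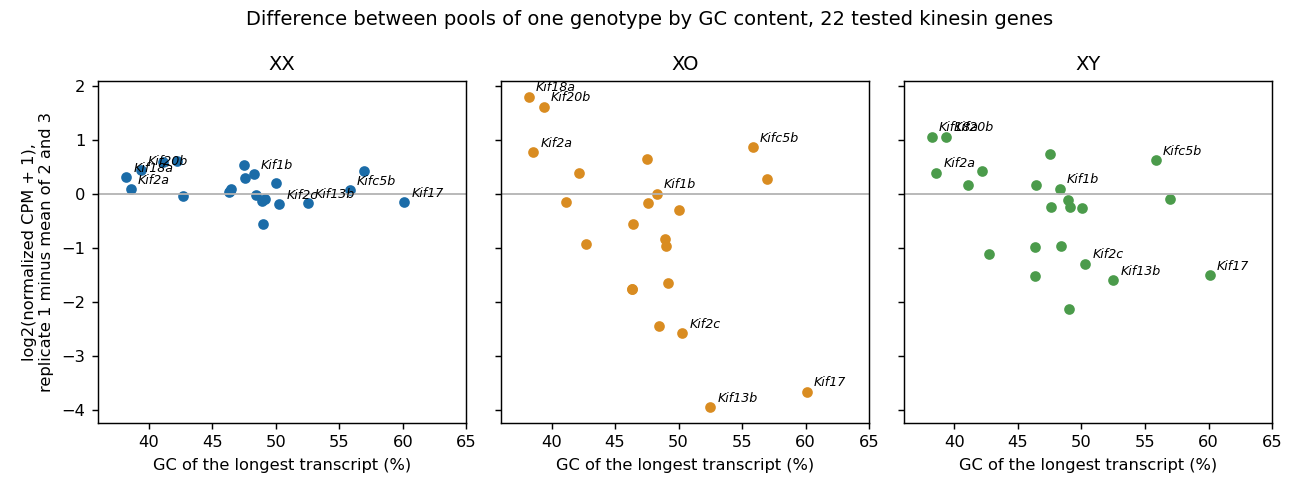
Difference of the pool with number 1 to the mean of the other pools of its genotype (log2 of normalized CPM + 1) against the GC content of the longest transcript, for the 22 tested kinesin genes in XX, XO and XY. Kif20b, Kif18a and Kif2a lie high at low GC, Kif13b, Kif17 and Kif2c lie low at high GC in XO and XY, Kifc5b is an exception, and XX pools differ least.

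Summed over all 40 members, kinesin transcripts were at 1161 ± 121 normalized CPM in XX pools, 1606 ± 241 in XO and 1403 ± 161 in XY (SD, n = 3). Per 1000000 gene UMIs, without spike-ins, the sums were 1364 ± 73.4, 1278 ± 239 and 1498 ± 99.2, so that the place of XO changed from the highest to the lowest with the scale. The spindle and cytokinesis genes held 68.1 to 74.7% of kinesin UMIs in XX, 58.9 to 84.9% in XO and 55.0 to 74.9% in XY pools. The transport genes held 17.9 to 24.7%, 11.5 to 33.7% and 18.4 to 36.5%, with the lowest share in XO1 and the highest in XY3. Cilium genes summed to 79.0 ± 5.503 normalized CPM in XX pools, 92.0 ± 24.5 in XO and 113 ± 6.92 in XY, mostly Kif9 and Kif24.

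**Figure D5:**
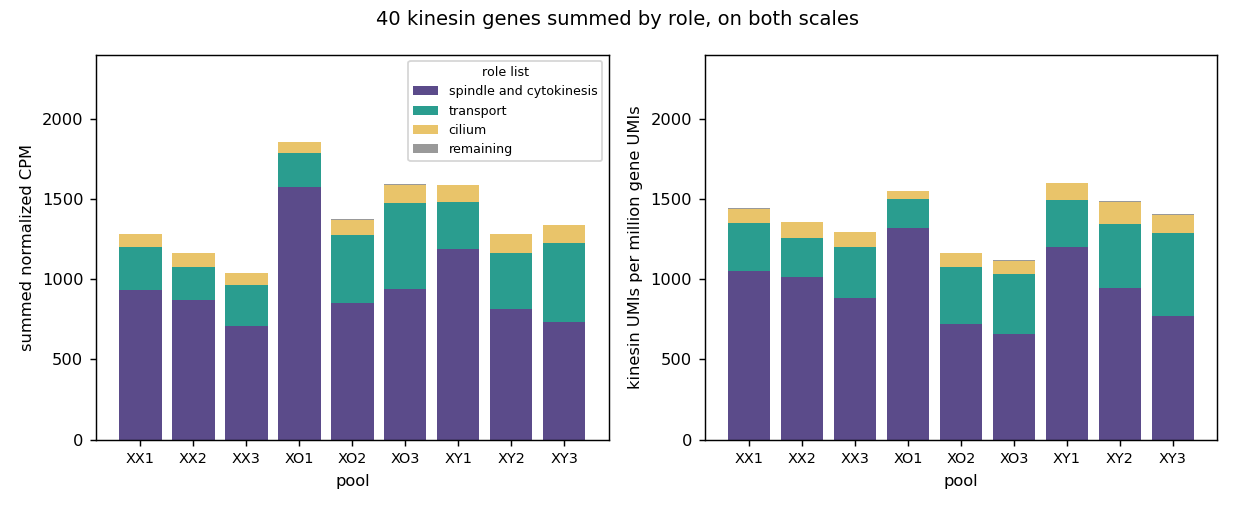
Stacked bars of the 40 kinesin genes summed by role list in each pool, as normalized CPM (left) and as UMIs per 1000000 gene UMIs (right). XO1 and XY1 have the largest spindle and cytokinesis part on both scales, and XO2 and XO3 are above the XX pools on the left and below them on the right.

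Partners of kinesins and the opposite motor were examined for comparison. Of 21 kinesin partners 17 were tested, and between XX and XO edgeR called 1 higher and 4 lower in XX, beside 18.1% of all genes. The former was X-linked Kif4, the chromokinesin of the midzone (0.68 ± 0.27 on the log2 scale, edgeR adjusted p = 0.248), and the latter were Prc1, which bundles midzone microtubules (−1.56), Trak1, an adaptor of mitochondria (−1.28), Kif1bp, a partner of Kif1b (−1.20), and Cenpe, a kinesin of kinetochores (−0.81). On the TMM scale Kif4 alone of the partners was called, both there and between XX and XY. With spike-in scaling edgeR called 0 partners between XX and XY, and Prc1 was called lower in XY than in XO (−1.31, edgeR adjusted p = 0.489). Of 34 genes of dynein and dynactin, the complex that walks to the minus end, 28 were tested. Between XX and XO 0 were called higher and 5 lower in XX (Nde1, Actr1a, Dctn6, Dctn4 and Dync1li2), between XX and XY 1 lower (Hook2, −1.30), and between XY and XO 1 higher (Hook2, 1.34) and 3 lower (Dctn6, Dync1li2 and Dctn4). The share of all genes was 18.1%, 5.80% and 9.93% in these comparisons, and the 5 of 28 between XX and XO lie near it. None of the partner and dynein genes passed adjustment in these fits. Without XO1, 1 partner was called higher in XX and 8 higher in XO (5 of these 9 past adjustment), and 9 dynein and dynactin genes were lower in XX (6 past adjustment), beside 36.9% of all genes. Between XY and XO, 6 partners were then lower in XY (2 past adjustment), and of dynein and dynactin 8 were lower and 1 higher (6 past adjustment), beside 32.1%. The median log2 fold change of XX against XO was −0.81 for the partners and −0.23 for dynein and dynactin, beside −0.46 for all genes.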

How the data were processed

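RNA of 30 oocytes per pool was sequenced by Smart-seq3. The authors aligned reads to GRCm38 and the Gencode transcriptome with HISAT2 and deposited UMI counts per gene (tool versions are not given in the sources used here). They also deposited a signal called normalized CPM, which equals the count divided by the gene total times the ERCC TMM factor and multiplied by 1000000 (largest relative difference 5e-15), and log2 values with batch effects regressed out, used here for ranks only. The count table held 28052 genes, 79 spike-ins and 1 entry with 0 UMIs, while 28051 genes were in each normalized table. No per-sample column was left unmapped.

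Groups followed the labels. Members, role lists, partner lists and named genes (members called in any contrast, the 12 most abundant and all spindle genes) were chosen with earlier results of these data known. Counts were tested with edgeR 4.0.16 (quasi-likelihood, filterByExpr by genotype, all 9 samples, 1 mean per genotype, two-sided, spike-in factors), which was tested on simulated data, and p-values measure the spread between pools. Alternatives were DESeq2 1.42.0, limma-voom 3.58.1, 2 covariates of sva 3.50.0, TMM on genes, no filter, a replicate block, left-out pools and fits of only the genotypes compared. Deviations of same-numbered XY and XO pools from their genotype means correlated at 0.83, 0.28 and 0.77 across tested genes. Across the 22 members they correlated at 0.85, −0.05 and 0.85. The fit reported does not pair these pools, and the number entered only as the replicate block, over all 9 pools. The numbers come from the sample labels, which do not say what a number marks. Same-numbered XX and XO pools correlated at 0.47, −0.45 and 0.68, and XX and XY pools at 0.435, −0.06 and 0.73. Across the members these values were 0.64, −0.38 and 0.74 for XX and XO, and 0.76, −0.02 and 0.81 for XX and XY. Transcript lengths, GC and words shared between genes came from Gencode vM21, and promoter windows from RefSeq.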

Additional observations from a re-analysis of the deposited data

How the results depend on the processing

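In the fit reported, 0 members passed adjustment in each comparison, and 9 pools with a common dispersion of 0.201 limit what can be detected. The count of called members between XX and XO, 0 as reported, was 1 with TMM on genes, DESeq2 (13.7% of all genes called) or 2 sva covariates (15.9%). It was 7 without the filter on low counts (14.1%, 40 members fitted and 4 past adjustment) and 0 to 6 with 1 pool left out (8.67 to 36.9%). Between XX and XY, 3 as reported, it was 1 with TMM or DESeq2 (5.24%) and 10 with sva (20.0%, 4 of them past adjustment). With 1 pool left out it was 0 to 8 (3.30 to 11.1%). Between XY and XO, 2 as reported, it was 4 with DESeq2 (10.2%), limma-voom (6.49%) or no filter (9.75%, Kif17 past adjustment). It was 6 with sva (21.6%, Kif1b past adjustment), 0 in a fit of these genotypes alone (5.24%) and 0 to 6 with 1 pool left out (3.74 to 32.1%).

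The replicate number as a block gave 4, 4 and 5 called members in these comparisons (23.0%, 9.16% and 16.6% of all genes). However, XX2 did not deviate together with XO2 or XY2, nor did XY2 with XO2 across the members. Alternatives chosen after seeing the data included leaving out XO1 and XY1 together, with 7, 8 and 8 called (41.7%, 15.7% and 27.8% of all genes). The other was removing the GC trend of each pool on the TMM scale, with 1, 1 and 4, or 1, 2 and 6 with the block (20.2%, 9.67% and 17.4% of all genes). Of 95 alternatives to the 5 called differences of single members 45 kept the call and 50 lost it, 0 reversed a called direction, and 83 of 928 alternatives to differences not called gained one. The cause of these shifts was not tested.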
